A study of Homo sapiens with 6 samples.

Results

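The BCL2 family was followed here through 10 genes that set the threshold for mitochondrial apoptosis, in K562 cells with and without the K700E substitution of SF3B1. The genes were taken by name, 4 that oppose apoptosis (BCL2, BCL2L1, MCL1 and BCL2A1) and 6 that promote it (BAX, BAK1, BCL2L11, BBC3, PMAIP1 and BID). All 10 were found once each among the 62111 gene identifiers of the deposited tables. K562 is a leukaemia line with erythroid features that carries the BCR-ABL1 fusion and lacks functional p53. SF3B1 is a core splicing factor that takes part in branch point recognition, and its K700E substitution recurs in blood cancers. The study sequenced mRNA from 3 K562 samples labelled with wild-type SF3B1 (WT) and 3 labelled SF3B1-K700E (K700E), with no treatment named for either group. The labels do not say how the substitution was introduced, whether either line is a single clone, or whether replicates are separate cultures and p-values therefore cover only library-to-library spread, which may be technical.

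Proteins of the BCL2 family decide whether the outer mitochondrial membrane stays closed. The effectors BAX and BAK1 form pores in it that release cytochrome c, the anti-apoptotic proteins hold effectors and activators in a surface groove, and the BH3-only proteins insert a short helix, the BH3 domain, into that groove. In erythroid and BCR-ABL1 positive cells BCL2L1 (the BCL-XL gene) and MCL1 are known survival genes, and BCL2L11 (the BIM gene) is the BH3-only gene best known for mediating death when the kinase is inhibited.

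The coding sequences of the BH3 core are shown because this helix is what the groups bind each other through, and it is shared by proteins on both sides of the comparison. The GENCODE release 29 transcripts were searched in frame for a leucine codon, 3 codons of any kind, a glycine codon (GGN) and an aspartate codon (GAC or GAT). The pattern stood once in 8 of the 10 genes, and in 13.8% of 19488 human coding sequences searched the same way. BBC3 held the same pattern with an alanine codon (GCN) in place of glycine, which 14.3% of coding sequences held, and BCL2A1 held neither. The codons of the pattern are in capitals, with 5 codons on each side.
BCL2: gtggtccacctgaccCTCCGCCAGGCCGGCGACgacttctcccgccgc
BCL2L1: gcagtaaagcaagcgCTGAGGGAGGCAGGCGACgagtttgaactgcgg
MCL1: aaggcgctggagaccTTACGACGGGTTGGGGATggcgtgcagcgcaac
BAX: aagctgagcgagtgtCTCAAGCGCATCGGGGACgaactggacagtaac
BAK1: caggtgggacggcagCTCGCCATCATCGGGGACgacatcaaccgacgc
BCL2L11: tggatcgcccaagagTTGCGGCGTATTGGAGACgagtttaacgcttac
BBC3: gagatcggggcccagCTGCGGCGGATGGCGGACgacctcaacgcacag
PMAIP1: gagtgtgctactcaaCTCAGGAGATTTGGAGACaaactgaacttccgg
BID: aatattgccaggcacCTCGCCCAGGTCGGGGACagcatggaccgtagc

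The codons for asparagine, tryptophan, glycine and arginine in a row, a signature of the BH1 domain that lines the groove, stood in all 4 anti-apoptotic genes and in both effectors, and in none of the 4 BH3-only genes. Only 21 of the 19488 coding sequences (0.1%) held it. BCL2A1, which lacked the BH3 pattern, is shown beside MCL1, with the signature in capitals.
BCL2A1: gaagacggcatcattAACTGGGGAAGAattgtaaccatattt
MCL1: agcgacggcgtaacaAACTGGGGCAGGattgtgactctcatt

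Values were TPM per gene (reads per length, scaled to 1000000 per library), in libraries of 104642332 to 136588117 recovered reads, so counting error was small for every member but BCL2A1. In every library more genes held 2 recovered reads than 1 (2994 against 1139 in WT replicate 1). Whether each recovered read is a separate fragment was not tested, so read numbers here may exceed the fragments behind them. The line's identity was checked on 10 erythroid genes, of which all 10 exceeded a mean of 1 TPM. Their sum was 3317 to 5689 TPM in WT and 4088 to 8313 TPM in K700E. The highest sum was that of K700E replicate 1, where HBE1 gave 3710 TPM, against 634 and 603 TPM in K700E replicates 2 and 3. TFRC and HBZ were the 2 of these 10 without overlap, both higher in K700E, beside 19.0% of all genes. Of 7 lymphoid markers 2 exceeded a mean of 1 TPM (sums 4.57 to 4.87 TPM in WT and 5.42 to 10.2 TPM in K700E), and of 6 myeloid markers 1 did (6.89 to 12.2 and 1.69 to 9.53 TPM). CD68 was listed at 0 in all libraries, and 100% of its exon bases are shared with other annotated genes. Of 6 stromal and epithelial markers 3 exceeded it (COL1A1, EPCAM and KRT18), and their sum did not overlap between genotypes, at 223 to 284 and 367 to 609 TPM. KRT18 gave 143, 239 and 193 TPM over the WT replicates against 554, 357 and 304 TPM over the K700E replicates, while EPCAM overlapped, at 43.4 to 78.9 and 48.8 to 62.3 TPM, and CDH1 lay under 0.1 TPM throughout. COL1A1 and the T cell marker CD3G were low and also apart between groups, CD3G at 0.443 to 0.531 and 1.30 to 5.08 TPM. CD3E, CD2, CD8A, CSF1R and COL3A1 averaged under 1 TPM and were likewise higher in K700E without overlap. ITGAM, the myeloid marker above 1 TPM, was lower in K700E on average, at 9.24 ± 2.49 and 4.01 ± 4.12 TPM, but overlapped. Among all tested genes 19.0% were higher and 4.99% lower in K700E without overlap. The part of these markers in the results on the family was not tested. SF3B1 itself averaged 119 ± 22.6 (WT) and 138 ± 21.5 TPM (K700E), SD over 3 libraries, with a limma adjusted p of 0.602. A value per gene cannot show the substituted base, so the genotype labels were not checked. In bulk RNA, a change in the share of expressing cells and a change in RNA per cell cannot be told apart.

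The 3 WT libraries were not alike. WT replicate 3 lay between replicates 1 and 2 in 75.9% of the 15493 genes tested, and in 8 of the 9 members tested. The labels do not say whether it is an independent culture, and without it 0 genes were called by limma, against 214 with it (1462 and 2563 at an unadjusted p under 0.05). Across genes, the deviation of a library from the mean of the 6 correlated with GC content at -0.65 in WT replicate 1 and 0.54 in WT replicate 2 (a description, since genes are not independent). The same correlation lay between -0.21 and 0.37 in the 4 other libraries. The members span GC contents from 37.2% in PMAIP1 to 69.7% in BBC3.

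No member of the family passed the test between genotypes. Genes averaging 1 TPM or more over the 6 libraries were tested with limma, and 0 of the 9 members among them had an adjusted p under 0.05, against 1.38% of all tested genes in either direction. At an unadjusted p under 0.05 there were 2 of 9, MCL1 and BCL2L11, against 16.5% of all genes. Both had every K700E library above every WT library, as did 19.0% of all genes, and 0 members lay the other way round, as did 4.99% of all genes. These member counts are near the background shares and are no result about the family. Limma-voom on the recovered reads called 0 of 10 members, with 2 at an unadjusted p under 0.05. The median member had a log2 difference of 0.29 on the log2(TPM + 1) scale, which understates changes of low genes, against 0.13 for the median of all tested genes. With 3 libraries a group, the smallest p that an exact permutation test can give is 0.1.

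**Figure D1:**
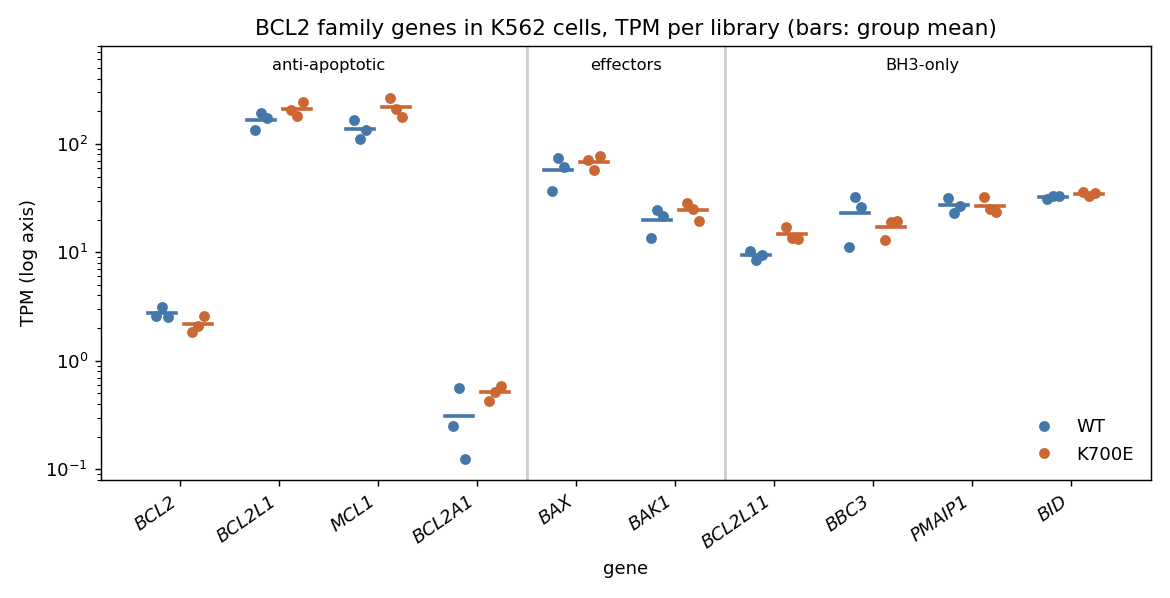
TPM (log axis) of the 10 BCL2 family genes in each of the 3 WT and 3 K700E libraries, with bars at the group means. BCL2L1 and MCL1 lie above 100 TPM in every library and BCL2A1 below 1 TPM, and the groups are apart only for MCL1 and BCL2L11.

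MCL1, a short-lived anti-apoptotic protein that holds BAK1 and the BH3-only proteins, had the largest log2 difference of the 9 tested members. MCL1 (ENSG00000143384, GRCh37 chromosome 1, 150547027 to 150552214, minus strand) gave 168, 110 and 135 TPM over WT replicates 1 to 3, against 264, 211 and 178 TPM over K700E replicates 1 to 3. Every K700E library lay above every WT library, though K700E replicate 3 was only slightly above WT replicate 1. The means were 138 ± 29.0 and 218 ± 43.7 TPM (SD, n = 3 each), a ratio of 1.58. The log2 difference of 0.66 (95% interval 0.18 to 1.14) had an unadjusted p of 0.0134 and an adjusted p of 0.178 in limma. The exact permutation p was 0.1, the smallest possible. Its rank by p was 1162 of 15493 genes. With TMM scaling, which moves the median gene from 0.13 to -0.03, the groups of MCL1 overlapped slightly, at 121.3 to 172.8 and 172.2 to 237.8 scaled TPM.

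BCL2L1 encodes BCL-XL, which guards both effectors and is induced late in red cell maturation. BCL2L1 (ENSG00000171552, chromosome 20, 30252255 to 30310671, minus strand) gave 133, 193 and 172 TPM over the WT replicates, against 206, 183 and 241 TPM over the K700E replicates. K700E replicate 2 lay below WT replicate 2, so the groups overlapped. The means were 166 ± 30.3 and 210 ± 29.6 TPM (SD, n = 3 each), with a log2 difference of 0.35 (95% interval -0.07 to 0.76, limma adjusted p 0.386). That difference was 0.20 without WT replicate 1, 0.46 without WT replicate 2, 0.19 with GC correction and 0.18 with TMM scaling. Of its annotated exon bases 42.2% are shared with the antisense RNA ABALON, whose values ran from 2.41 to 4.56 TPM (WT) and from 5.92 to 6.31 TPM (K700E). Whether the counting used strand is not given in the sources used here, so reads in that stretch cannot be assigned.

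The remaining anti-apoptotic genes were low. BCL2, the founding member and the target of venetoclax (ENSG00000171791, chromosome 18, 60790579 to 60987361, minus strand), gave 2.57, 3.13 and 2.51 TPM over the WT replicates, against 1.83, 2.097 and 2.57 TPM over the K700E replicates. The highest K700E library was level with the lower WT libraries. Its log2 difference of -0.24 (95% interval -0.62 to 0.14) had a limma adjusted p of 0.509. BCL2A1, an NF-kB induced gene of myeloid cells and lymphocytes (ENSG00000140379, chromosome 15, 80253234 to 80263538, minus strand), had a mean under 1 TPM and was not tested. Its values were 0.248, 0.559 and 0.124 TPM for the WT replicates against 0.428, 0.516 and 0.590 TPM for the K700E replicates, from 6 to 27 reads per library. WT replicate 2 lay within the K700E range.

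The libraries of both effectors overlapped between genotypes. BAX (ENSG00000087088, chromosome 19, 49458132 to 49465055, plus strand), which moves from the cytosol to the mitochondrion when activated, gave 37.2, 74.4 and 60.8 TPM over the WT replicates, against 70.8, 57.5 and 77.5 TPM over the K700E replicates. BAK1 (ENSG00000030110, chromosome 6, 33540324 to 33548070, minus strand), which sits in the membrane already, gave 13.6, 24.8 and 21.8 TPM over the WT replicates, against 28.4, 25.2 and 19.6 TPM over the K700E replicates. Both were lowest of all in WT replicate 1 and otherwise shared one range. The log2 differences were 0.30 for BAX (95% interval -0.31 to 0.90) and 0.29 for BAK1 (-0.28 to 0.87), and limma's adjusted p was 0.617 and 0.599. Without WT replicate 1 the differences were 0.02 and 0.05, and without WT replicate 2 they were 0.51 and 0.46. Their GC contents were 58.9% and 58.8%, and WT replicate 1 had the most negative correlation with GC content. The part of GC content in these values was not tested beyond a GC correction, under which BAX was at 0.16 and BAK1 at 0.15 (log2). The BAX to BAK1 ratio in TPM was 2.84 ± 0.150 for WT and 2.91 ± 0.907 for K700E (SD, n = 3 each).

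Of the 4 BH3-only members, BCL2L11 had the largest log2 difference. BCL2L11 encodes BIM, which binds all the anti-apoptotic proteins and activates BAX and BAK1 directly. The gene (ENSG00000153094, chromosome 2, 111878491 to 111926022, plus strand) gave 10.3, 8.58 and 9.36 TPM over the WT replicates, against 17.1, 13.6 and 13.2 TPM over the K700E replicates. The lowest K700E library lay clearly above the highest WT library. The means were 9.42 ± 0.868 and 14.6 ± 2.12 TPM (SD, n = 3 each), a ratio of 1.55. The log2 difference was 0.58 (95% interval 0.20 to 0.95), with an unadjusted p of 0.00774 and an adjusted p of 0.141 in limma, and the exact permutation p was 0.1. The groups also stayed apart with TMM scaling, at 9.46 to 10.6 and 12.8 to 15.4 scaled TPM. Of its exon bases 11.9% are shared with the opposite-strand MIR4435-2HG, with values of 7.24 to 8.31 TPM (WT) and 7.58 to 10.5 TPM (K700E).

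BBC3 and PMAIP1 encode PUMA and NOXA, the BH3-only proteins that p53 induces most directly, and the libraries of both overlapped between genotypes. BBC3 (ENSG00000105327, chromosome 19, 47724081 to 47736023, minus strand) gave 11.2, 32.5 and 25.9 TPM over the WT replicates, against 12.9, 18.9 and 19.3 TPM over the K700E replicates. The K700E libraries lay inside the wide WT range, and WT replicate 1 was again the lowest. The log2 difference was -0.32 (95% interval -1.19 to 0.54, limma adjusted p 0.714), and leaving out 1 library moved it from -0.76 without WT replicate 1 (adjusted p 0.116) to -0.03 without WT replicate 2 (adjusted p 0.979). With GC correction it was -0.34, at an unadjusted limma p of 0.0319 and an adjusted p of 0.185. PMAIP1 (ENSG00000141682, chromosome 18, 57567228 to 57571537, plus strand), whose product binds MCL1 and marks it for degradation, gave 32.0, 22.9 and 26.7 TPM over the WT replicates, against 32.2, 25.0 and 23.8 TPM over the K700E replicates. The ranges nearly coincided, and the log2 difference was -0.01 (95% interval -0.43 to 0.42, limma adjusted p 0.986), or -0.14 with GC correction.

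BID, which caspase-8 cleaves to carry a death receptor signal to the mitochondrion, had the smallest SD for its level in both groups. BID (ENSG00000015475, chromosome 22, 18216904 to 18257431, minus strand) gave 30.8, 33.0 and 32.8 TPM over the WT replicates, against 36.1, 32.8 and 35.5 TPM over the K700E replicates. K700E replicate 2 fell within the WT range. The log2 difference was 0.11 (95% interval -0.18 to 0.40, limma adjusted p 0.715), below that of the median gene, and its sign turned with scaling (-0.06 with TMM).

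**Figure D2:**
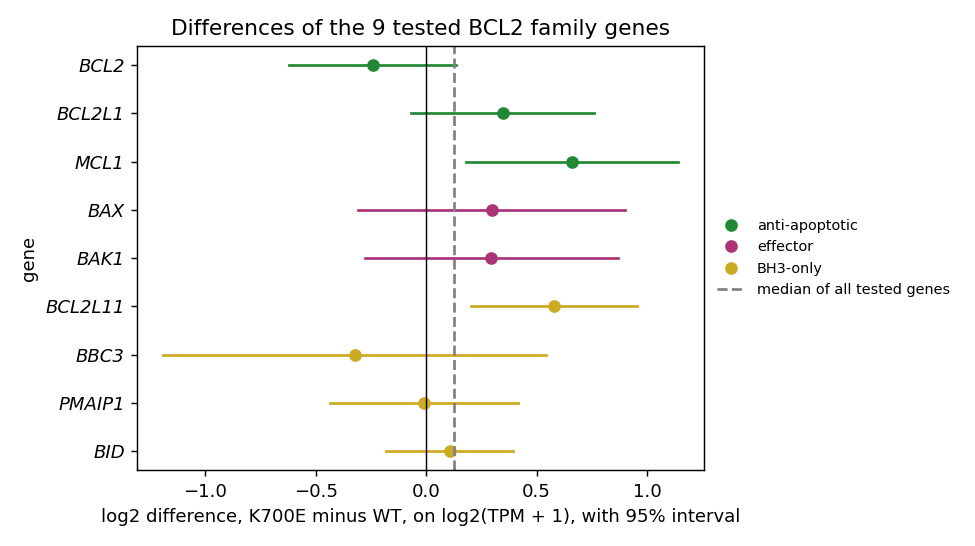
Log2 difference (K700E minus WT, on log2(TPM + 1)) of the 9 tested members with its 95% interval, coloured by role, and a dashed line at the median of all tested genes (0.13). The intervals of MCL1 and BCL2L11 lie above 0, and the other 7 include 0.

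The order of the members by level was much the same in both genotypes. BCL2L1 (166 TPM) and MCL1 (138 TPM) led in WT, followed by BAX (57.5), BID (32.2), PMAIP1 (27.2), BBC3 (23.2), BAK1 (20.1), BCL2L11 (9.42), BCL2 (2.74) and BCL2A1 (0.310). In K700E MCL1 (218 TPM) and BCL2L1 (210 TPM) exchanged ranks, as did BAK1 (24.4) and BBC3 (17.0). The libraries of MCL1 and BCL2L1 overlapped in both groups, so their order was not larger than the spread, and those of BAK1 and BBC3 overlapped in WT only. In WT the neighbours from BID down to BAK1 overlapped as well, and in K700E so did PMAIP1 with BAK1 and BBC3 with BCL2L11. The share of MCL1 in the summed anti-apoptotic TPM was 55.3, 35.9 and 43.6% for the WT replicates and 55.9, 53.3 and 42.1% for the K700E replicates. These shares overlapped widely.

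Set against each other, anti-apoptotic and pro-apoptotic genes were compared by their summed TPM, which the highest genes dominate. The summed anti-apoptotic TPM was 304, 306 and 309 for the WT replicates and 473, 396 and 422 for the K700E replicates. All K700E libraries lay above all WT libraries, with means of 306 ± 2.71 and 430 ± 38.9 TPM (SD, n = 3 each), a ratio of 1.40. With TMM scaling the WT sums spread more, from 313 to 338 (325 ± 12.6). The scaled K700E sums were 380 to 425 (405 ± 23.1), a ratio of 1.24. How often sums of other genes lie apart was not computed. Within the narrow unscaled WT range MCL1 and BCL2L1 lay in opposite order over the 3 libraries, MCL1 highest and BCL2L1 lowest in replicate 1. The GC contents of MCL1 and BCL2L1 are 45.1% and 56.9%, and the part of GC content in that pattern was not tested. The summed pro-apoptotic TPM was 135, 196 and 177 in WT and 197, 173 and 189 in K700E, which overlapped, with a ratio of means of 1.10 (0.972 with TMM scaling).

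The anti-apoptotic to pro-apoptotic ratio was 2.25, 1.56 and 1.74 in WT and 2.39, 2.29 and 2.23 in K700E. WT replicate 1 reached the K700E range, so the groups overlapped despite means of 1.85 ± 0.356 and 2.31 ± 0.0812 (SD, n = 3 each). With the geometric mean of TPM + 1 over the members in place of the sum, the ratio was 0.731 ± 0.111 in WT and 0.772 ± 0.0383 in K700E. Low genes weigh more there than in the sum, but the added 1 damps differences of BCL2 and above all of BCL2A1. The genes are therefore not weighted equally. A sum over chosen genes was given no test.

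Single partners were compared next. The MCL1 to BCL2L11 ratio in TPM was 14.5 ± 1.73 for WT and 14.8 ± 1.22 for K700E (SD, n = 3 each), so the level of the protector gene relative to this activator differed by less than the spread. MCL1 relative to PMAIP1, whose product targets it, was 5.25, 4.81 and 5.05 in WT and 8.21, 8.44 and 7.47 in K700E, with no overlap. The share of BCL2L11 in the summed BH3-only TPM was 12.2, 8.85 and 9.87% for the WT replicates and 17.4, 15.0 and 14.4% for the K700E replicates, again with no overlap. The summed BH3-only TPM itself was 92.0 ± 6.81 and 93.4 ± 4.26 (ratio of means 1.015), and the ratio of PMAIP1 means was 0.993. Both separations therefore largely repeat the differences of MCL1 and BCL2L11, the members of smallest p. BCL2L1 to BCL2L11 averaged 17.9 in WT and 14.6 in K700E, and MCL1 to BCL2L1 averaged 0.872 and 1.06. The libraries overlapped in each of these latter ratios. No partner ratio was tested, and how often ratios of other genes lie apart was not computed.

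**Figure D3:**
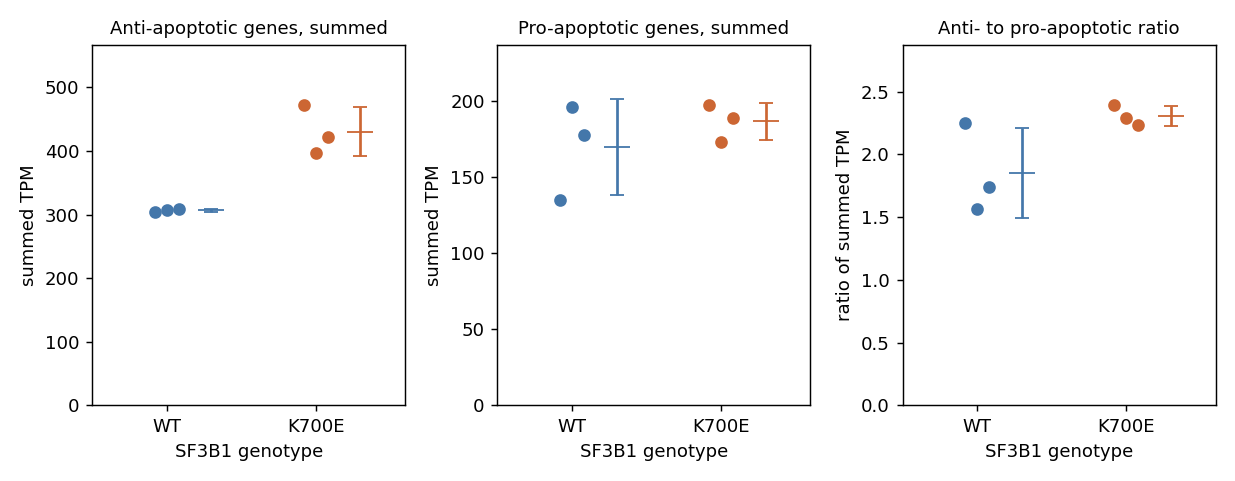
Summed TPM of the 4 anti-apoptotic genes (left), of the 6 pro-apoptotic genes (middle) and their ratio (right) in each library, with mean and SD beside the points. The anti-apoptotic sums do not overlap between genotypes, while WT replicate 1 reaches the K700E range in the ratio.

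The genes with the nearest profiles were sought for the 2 members of smallest p, by the root-mean-square difference of centred log2(TPM + 1) over the 6 libraries. For BCL2L11 they were SLC25A12, a mitochondrial aspartate-glutamate carrier (0.0392), the GTPase gene GNL3L (0.0418) and ATP5MC1, a subunit of ATP synthase (0.0421). For MCL1 they were ARHGEF12, a guanine nucleotide exchange factor (0.0319), RWDD2B (0.0429) and the microtubule gene EML4 (0.0544). EML4 gave 41.5, 26.5 and 32.9 TPM over the WT replicates and 59.9, 49.5 and 44.9 TPM over the K700E replicates, the same order of libraries as MCL1.

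Other genes of the pathway, in 9 lists of 90 genes, were tested in the same fit. Of 81 tested genes 0 were called by limma. At an unadjusted limma p under 0.05 there were 11, beside 16.5% of all genes. All 11 were higher in K700E, in a fit whose median gene was also higher (0.13). Of these 81, 17 (21.0%) did not overlap and were higher in K700E, near the 19.0% of all genes, and 1 was lower, ATF4, beside 4.99% of all genes. ATF4, which drives stress induction of PMAIP1 and BBC3, averaged 662 ± 59.3 and 572 ± 28.2 TPM (SD, n = 3 each), with a limma adjusted p of 0.428. Their median log2 difference was 0.13, as for all genes.

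Among the other BCL2 family genes, BOK, an effector-like protein of the endoplasmic reticulum, gave 1.29, 3.24 and 2.74 TPM over the WT replicates, against 5.73, 5.52 and 5.12 TPM over the K700E replicates. Its groups were well apart, with a log2 difference of 0.96 (limma adjusted p 0.117). The BH3-only genes HRK and BIK were under 1 TPM on average and were not tested. HRK averaged 0.310 ± 0.0829 (WT) and 0.986 ± 0.227 TPM (K700E), and BIK at 0.996 ± 0.275 and 0.486 ± 0.0625 TPM (SD, n = 3 each). Neither overlapped between the groups, HRK higher and BIK lower in K700E, from 54 to 354 and from 19 to 64 reads per library. Among all tested genes, which do not include HRK and BIK, 19.0% were higher and 4.99% lower in K700E without overlap. BCL2L12 averaged 42.4 ± 12.9 (WT) and 57.1 ± 4.99 TPM (K700E), SD over 3 libraries, without overlap (limma adjusted p 0.382), and 25.3% of its exon bases are shared with IRF3 on the opposite strand. BCL2L13 averaged 79.0 ± 15.7 and 87.0 ± 0.652 TPM and overlapped (limma adjusted p 0.689). BCL2L2, the BCL-W gene, averaged 46.6 ± 1.91 and 48.4 ± 4.21 TPM (limma adjusted p 0.880), and BCL2L10 was listed at 0 in all 6 libraries. With these genes and BAD, BMF and BCL2L14 added, the ratio of the 2 sides was 1.15 ± 0.155 in WT and 1.36 ± 0.0716 in K700E, still overlapping. BCL2L2 and BCL2L10 were counted as anti-apoptotic, and all the others, including BCL2L12 and BCL2L13, as pro-apoptotic. No other assignment of BCL2L12 and BCL2L13, the highest of the added pro-apoptotic genes, was tried.

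Downstream of the mitochondrion, all 8 apoptosome, caspase and DNA fragmentation genes were tested and 0 were called by limma. At an unadjusted limma p under 0.05 there were 2, beside 16.5% of all genes. DFFA, the inhibitor and chaperone of the apoptotic nuclease, gave 33.7, 35.4 and 35.6 TPM over the WT replicates, against 54.5, 62.3 and 47.0 TPM over the K700E replicates (limma adjusted p 0.0970). Its groups did not overlap, nor did those of the nuclease gene DFFB at 9.10 ± 0.355 and 11.4 ± 0.940 TPM (SD, n = 3 each). Of 7 inhibitor of apoptosis genes and their antagonists 5 were tested, and the groups of all 5 overlapped. Among all genes 19.0% were higher and 4.99% lower in K700E without overlap. The 3 with the smallest p were BIRC2, BIRC5 and XIAP, with limma adjusted p of 0.436, 0.629 and 0.630. DIABLO, the SMAC gene, was at 0.0168 to 0.112 TPM, and 96.2% of its exon bases are shared with other annotated genes on its strand.

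Of 7 mitochondrial partners MFN2, a fusion protein that associates with BAX and BAK1, had the smallest p, at 72.3 ± 5.23 and 95.1 ± 12.1 TPM (SD, n = 3 each; limma adjusted p 0.237). VDAC2, the channel that holds BAK1 in the membrane, stood at 580 ± 47.5 and 506 ± 63.3 TPM (0.513), and VDAC1 at 331 ± 52.2 and 394 ± 38.0 TPM (0.448). Of 10 regulators of the proteins, DYNLL2, a dynein light chain that binds the BH3-only protein BMF, gave 37.5, 35.6 and 37.4 TPM over the WT replicates, against 53.1, 48.7 and 45.5 TPM over the K700E replicates (limma adjusted p 0.178). In the same list MAPK8 had a limma adjusted p of 0.772.

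Among 13 transcription regulators of the family 12 were tested. STAT5B, which BCR-ABL1 activates and which drives BCL2L1 and MCL1, averaged 110 ± 8.71 (WT) and 138 ± 5.97 TPM (K700E), SD over 3 libraries, with a limma adjusted p of 0.241. NFKB1 stood at 9.70 ± 0.179 and 13.1 ± 1.79 TPM (0.255) and MYC at 97.8 ± 14.1 and 127 ± 10.6 TPM (0.270). Of 22 p53 target genes, of which BAX, BBC3 and PMAIP1 are also members, 20 were tested and 0 were called by limma. At an unadjusted limma p under 0.05 there were 3, beside 16.5% of all genes, and the median log2 difference was 0.11. TNFRSF10B, a TRAIL receptor, gave 97.5, 65.1 and 85.8 TPM over the WT replicates, against 131, 191 and 147 TPM over the K700E replicates (limma adjusted p 0.0889). CDKN1A had a limma adjusted p of 0.143 and PLK3 one of 0.244, both with groups apart and higher in K700E, as in 19.0% of all genes.

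Splicing decides which protein MCL1, BCL2L1 and BCL2L11 give, since skipping an exon or using another splice site turns the long protective forms of MCL1 and BCL2L1 into short killing ones. Values per gene sum these forms, so isoforms were not measured here. Of 16 splicing regulators known to act on these genes 0 were called by limma and 0 had an unadjusted p under 0.05, beside 16.5% of all genes. The smallest p values belonged to TRA2B, at 87.2 ± 7.80 and 111 ± 19.5 TPM (SD, n = 3 each; limma adjusted p 0.347), KHDRBS1 (0.447) and HNRNPK (0.574). These were the 3 of 16 whose groups did not overlap, all higher in K700E, near the 19.0% of all genes.

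**Figure D4:**
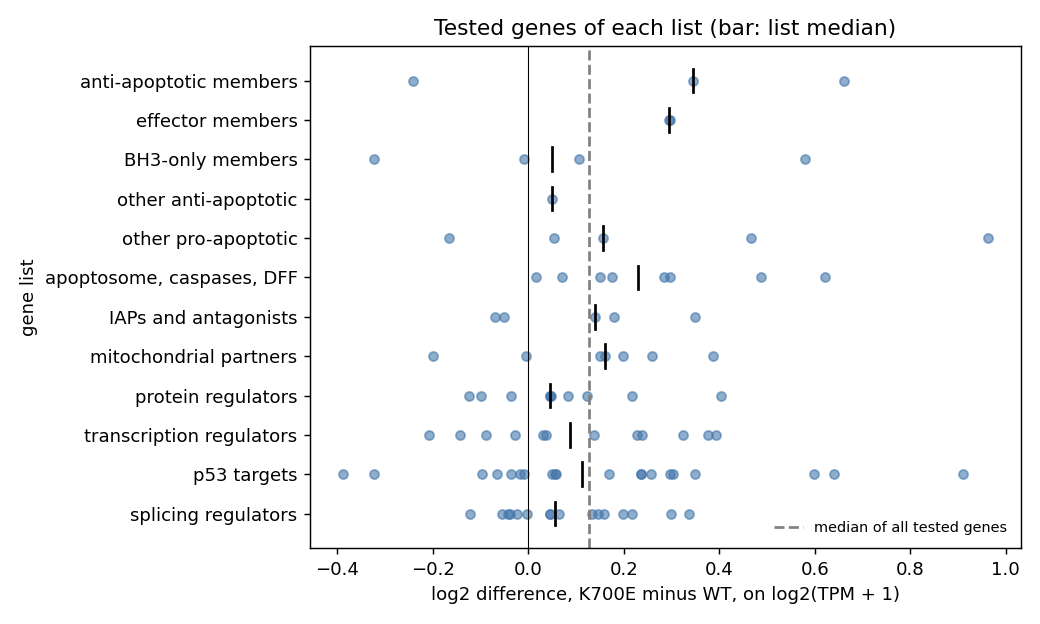
Log2 difference (K700E minus WT, on log2(TPM + 1)) of each tested gene in 12 lists, with a bar at each list's median and a dashed line at the median of all tested genes (0.13). Every list but the effectors and the single other anti-apoptotic gene has points on both sides of the dashed line, and BOK and TNFRSF10B lie above 0.9.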

How the data were processed

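The authors deposited TPM values per gene in a table for each genotype, and each column summed to 1000000. Tools listed in the submitters' processing notes are TopHat2 2.1, cutadapt 2.10, DESeq2 and featureCounts 2.0.1, with GRCh37 (hg19) as the build. Per the file headers, the WT columns carry names in the form that STAR writes, so the aligner is not settled, and an aligner difference between tables cannot be told apart from genotype. Symbols were matched for 94.4% of identifiers. Once rescaled by gene length, 100% of the TPM values were whole multiples of 1 read within 0.01.

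The fit used limma 3.58.1 (R 4.3.3) on log2(TPM + 1) for the 15493 genes averaging 1 TPM or more, with empirical Bayes and a trend, genotype as the only term, two-sided p and Benjamini-Hochberg adjustment. The procedure was tested on simulated data with noise drawn independently per gene and library. Those data lacked the GC deviations, the in-between position of WT replicate 3 and the shift of the median gene described above. Members and lists were chosen with earlier results of these data known. The text names all 10 members and, per list, up to 3 genes of smallest p. Some genes that this rule selects are not reported here. SF3B1, HRK, BIK, BCL2L10, ATF4, DIABLO, the marker genes and the overlapping genes were added after values were seen. GC content came from GENCODE 29 transcripts, joined by identifier (97.7% of tested genes). Exon overlaps used bedtools 2.31.1 on the deposited coordinates.

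The alternatives changed the pseudocount (0.1, 5) or the filter (none, 5 TPM), or used median-ratio and TMM scaling, no trend, limma-voom on recovered reads (mean of at least 10), the replicate number as a block, and leaving out each library. GC correction and 2 fits without WT replicate 3 were added after the data were seen.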

Additional observations from a re-analysis of the deposited data

How the results depend on the processing

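In all 18 alternatives 0 members were called, with adjusted p for MCL1 from 0.0928 (without WT replicate 1) to 0.490 and for BCL2L11 from 0.0634 (GC correction) to 0.476, both highest without WT replicate 3. Both stayed at an unadjusted p under 0.05 in all 18, with log2 differences from 0.49 to 0.81 and from 0.42 to 0.64. With GC correction they were 0.51 and 0.43. Of 161 member values under alternatives 154 kept direction and side of the threshold. BID turned to -0.033 with median-ratio scaling, -0.059 with TMM scaling, -0.051 with GC correction and -0.044 with that and no WT replicate 3. PMAIP1 turned to 0.11 without WT replicate 1, 0.04 without K700E replicate 2 and 0.07 without K700E replicate 3. Leaving out 1 library took PMAIP1 down to -0.14 (without K700E replicate 1), and TMM scaling to -0.17. Scaling moved the median gene from 0.13 to -0.0006 (median-ratio) and -0.03 (TMM), and the cause of the other reversals was not tested. The K700E to WT quotient of the anti-apoptotic to pro-apoptotic ratio was 1.25, 1.06 with geometric means of TPM + 1, and from 1.16 to 1.40 leaving out 1 library.

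Over all genes 214 were called. The count was 0 with no filter (4891 at an unadjusted limma p under 0.05), 92 with a minimum of 5 TPM, 381 with limma-voom, 489 with GC correction, and 0 with GC correction or limma-voom without WT replicate 3, where 1970 and 2420 genes had an unadjusted limma p under 0.05. Leaving out 1 library gave 0 (without WT replicate 3, with 1462 at an unadjusted limma p under 0.05) to 182, with 125 without WT replicate 2 and 98, 84 and 129 without K700E replicates 1, 2 and 3. The higher and lower counts were 178 and 36, against 104 and 44 with TMM scaling, 119 and 41 with median-ratio scaling and 268 and 221 with GC correction. The replicate block gave 67 genes and 0 members. Same-numbered libraries deviated together at correlations of 0.28, -0.19 and 0.30, and WT replicate 2 correlated best with K700E replicate 3 (0.43). Deviations were centred within each group of 3, which ties them to each other. These correlations therefore cannot show whether same-numbered samples share more than a number. The cause of these moves was not tested. Depth limits only BCL2A1 among the members.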
